A study of Homo sapiens with 15 samples.

Results

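The genes described here encode 4 sodium channel subunits: the auxiliary beta subunits SCN2B, SCN3B and SCN4B and the pore-forming subunit SCN10A. They were chosen by symbol, and each matched 1 of the 58780 annotated genes in the deposited count table. They were measured by RNA sequencing in 15 libraries of cardiomyocytes differentiated from the wild-type human embryonic stem cell line H7 under an atrial protocol, which used 1 nM TTNPB and 100 nM retinoic acid on day 3 and dissociation on day 17. The groups, with 3 libraries each, were siRNA-1 and siRNA-2, both aimed at ATRNL1, and a scramble siRNA control, then a lentivirus that expresses the short ATRNL1 isoform and a control lentivirus. Per the labels' protocols the lentiviral cells were selected with puromycin, so virus and selection separate the lentiviral groups from the siRNA groups. Every library came from the same cell line, and the labels do not state that a group's libraries were separate differentiations. In 4 of the 5 groups 1 sample title carries a number that joins digits of the other two, and the labels do not say whether such a library is a pool of the others, in which case 3 libraries would overstate the number of independent samples. The p-values therefore measure only the spread between these libraries, which may be technical.

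Voltage-gated sodium channels open when the membrane depolarises and carry the fast inward current of the upstroke of the action potential. A large alpha subunit forms the pore. Beta subunits are small membrane proteins with 1 membrane span and an extracellular immunoglobulin-like domain; they adjust gating, help to bring the pore to the cell surface and act as adhesion molecules. SCN2B and SCN4B proteins attach to the alpha subunit by a disulfide bond, whereas SCN3B protein binds it without one. SCN10A encodes a tetrodotoxin-resistant alpha subunit best known from sensory neurons, and common variants at its locus have been associated with cardiac conduction in humans.

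On GRCh38, with the GENCODE v29 annotation, all 4 genes lie on the minus strand. SCN4B (ENSG00000177098, chr11:118133377-118152888) and SCN2B (ENSG00000149575, chr11:118161951-118176673) are adjacent, with 9062 bases between them. SCN3B (ENSG00000166257, chr11:123629187-123655244) lies on the same chromosome, and SCN10A (ENSG00000185313, chr3:38696807-38816217) on chromosome 3. No other annotated gene overlapped any of the 4. The exons of all annotated transcripts together span 5826 bases for SCN2B, 9464 for SCN3B, 5649 for SCN4B and 6630 for SCN10A.

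The RefSeq promoter table (GRCh38.p14) holds the sequence upstream of 1 RefSeq transcript start for 3 of the genes. These stretches are shown because the adjacent SCN2B and SCN4B rose in the same comparisons, as did the non-adjacent SCN3B, while SCN10A did not. Each reads 5′ to 3′ on the minus strand from 250 bases before the RefSeq start, leaving out bases that GENCODE v29 places in an exon of a coding transcript, and capitals mark CG dinucleotides. The SCN2B stretch is chr11:118176674-118176889, the SCN4B stretch chr11:118145434-118145683 and the SCN10A stretch chr3:38794043-38794260. The RefSeq start lies 34 bases inside the GENCODE gene for SCN2B, but 7455 bases inside it for SCN4B and 22207 bases inside it for SCN10A, so the SCN4B and SCN10A stretches lie within the annotated genes and not upstream of their outermost start.
SCN2B: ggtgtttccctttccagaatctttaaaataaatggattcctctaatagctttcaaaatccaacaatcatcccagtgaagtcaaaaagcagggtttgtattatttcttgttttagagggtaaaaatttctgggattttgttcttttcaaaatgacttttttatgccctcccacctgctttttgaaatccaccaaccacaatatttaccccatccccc
SCN4B: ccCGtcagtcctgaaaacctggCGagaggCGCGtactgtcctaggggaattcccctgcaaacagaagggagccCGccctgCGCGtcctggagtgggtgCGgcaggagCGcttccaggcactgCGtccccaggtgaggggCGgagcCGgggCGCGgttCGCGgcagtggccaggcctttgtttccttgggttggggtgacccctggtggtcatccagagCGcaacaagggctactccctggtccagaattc
SCN10A: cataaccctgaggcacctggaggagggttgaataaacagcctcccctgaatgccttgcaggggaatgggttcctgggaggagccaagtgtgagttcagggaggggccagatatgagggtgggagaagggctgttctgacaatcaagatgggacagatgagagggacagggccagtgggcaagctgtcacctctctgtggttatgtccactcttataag

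The stretches before these RefSeq starts differed in base composition. Over all 250 bases SCN4B had a GC content of 66% and 17 CG dinucleotides, and 61% of the 35116 promoters in the table had fewer. SCN2B had a GC content of 38% and SCN10A of 52%, each with 0 CG dinucleotides, against a median of 11 over all promoters. The 250 bases were searched on both strands for 6 motifs: a T-box element (GGTGTG, in 14.2% of all promoters), a GATA site (AGATAA, 9.17%), an NKX site (TNAAGTG, 8.73%), a MEF2 site (TAAAAATA, 2.09%), a nuclear receptor element (AGGTCA, 12.1%) and a TATA box (TATAAA, 10.7%). The only match was a TATA box 30 bases before the SCN10A start, in the bases left out of the printed stretch. SCN3B is not among the promoters shown.

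Library totals ran between 37078568 and 108663135 counts. Levels are given as CPM, counts scaled to a common library size after TMM normalisation, and per kilobase of exon as RPKM where genes are set beside each other. ATRNL1 was at 8.26 to 10.2 CPM in siRNA-1 libraries and 4.61 to 5.41 CPM with siRNA-2, against 13.8 to 16.9 CPM with scramble. With the ATRNL1 lentivirus it was at 636 to 927 CPM, against 27.1 to 29.2 CPM with the control lentivirus. These values follow the labels in all 15 libraries. Of 8 atrial markers, 6 reached 1 CPM in every group (NPPA, MYL7, NR2F2, KCNA5, MYBPHL and TBX5). SLN and NR2F1 stayed below it, with group means of 0.123 to 0.208 CPM and 0.448 to 0.771 CPM. The 8 atrial markers summed to 1977 to 3018 CPM over the libraries, and 5 ventricular markers to 6150 to 16559 CPM. Of the latter, the ventricular myosin light chain MYL2 averaged 1133 to 3806 CPM over the groups. Differences are given as log2 fold changes from edgeR's quasi-likelihood test on counts, with 95% confidence intervals and p-values adjusted over the 24659 genes tested. A gene is said to have risen or fallen where the adjusted p was below 0.05. In bulk RNA, fewer cells of a type and less RNA per cell cannot be told apart.

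Per kilobase of exon the order of the 4 genes was the same in every group: SCN2B first, then SCN3B, SCN4B and SCN10A. SCN2B averaged 2.57 RPKM with siRNA-2, its highest group, and 1.01 RPKM with the control lentivirus, its lowest. SCN3B averaged 0.444 to 1.18 RPKM, SCN4B 0.121 to 0.606 RPKM and SCN10A 0.0103 to 0.0436 RPKM over the groups. Of the summed level of the 4 genes per kilobase, SCN2B made up 59.1 to 63.9%, SCN3B 20.2 to 27.6%, SCN4B 7.29 to 16.2% and SCN10A 0.235 to 2.66%, as group means. The libraries of neighbouring genes in that order did not overlap within any group. Set against the 15200 coding genes that passed the low-count filter, SCN2B stood above 32.8 to 44.3% of them and SCN4B above 13.2 to 26.7%. Among these filtered genes the beta subunit genes thus lay in the lower part of the range. Coding genes that failed the filter were not ranked. Counting only the longest transcript raised the SCN3B level, for example to 1.84 RPKM in place of 1.18 RPKM with siRNA-2, and left the order as it was.

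**Figure D1:**
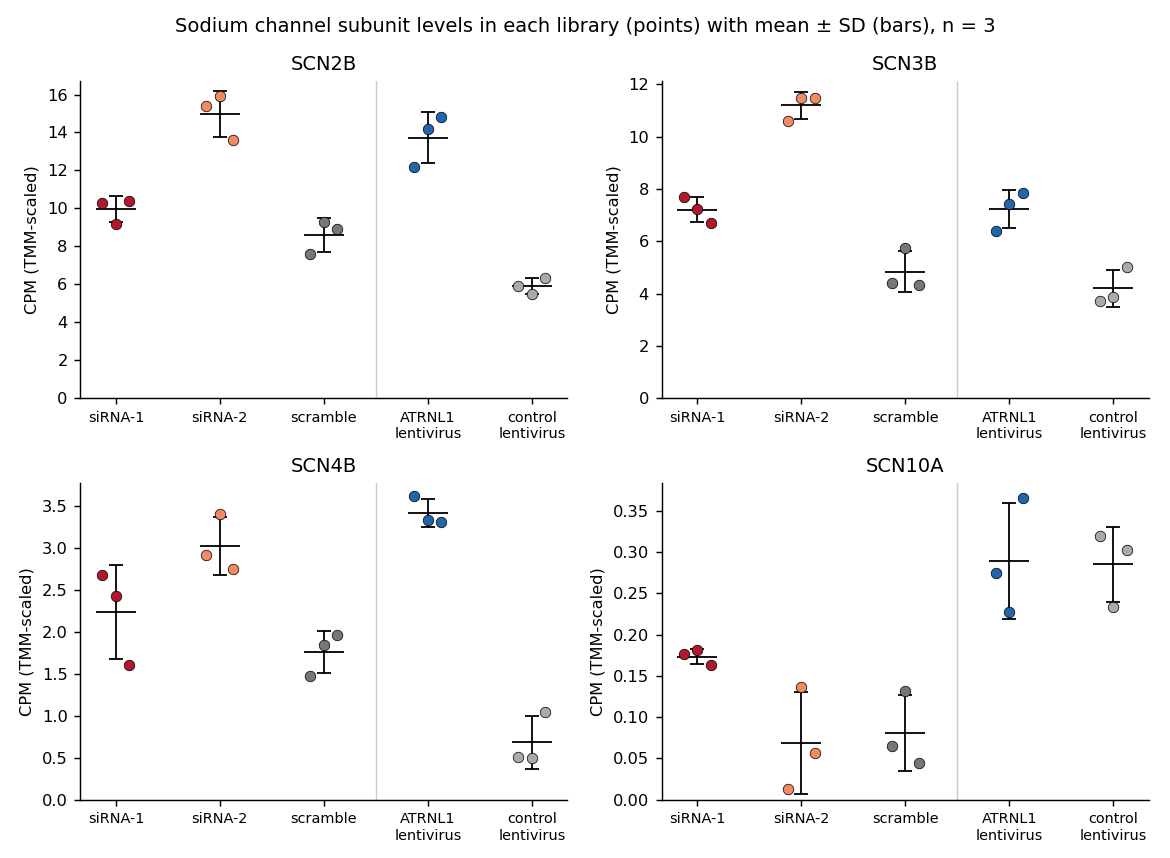
Level of each of the 4 genes in CPM on linear axes, with 1 point per library, a bar at the mean and whiskers of 1 SD (3 libraries a group). SCN2B, SCN3B and SCN4B were high with siRNA-2 and the ATRNL1 lentivirus and lowest with the control lentivirus, whereas SCN10A was at or below 0.366 CPM in all 15 libraries.

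Both ATRNL1 siRNAs were set against the scramble control to ask how the subunits stood when ATRNL1 was lowered. ATRN, which encodes attractin, fell as well, to 0.81-fold with siRNA-1 (edgeR, adjusted p = 0.00391) and 0.632-fold with siRNA-2 (adjusted p = 1.17e-07). The part of ATRN in the subunit values was not tested. With siRNA-2, which lowered ATRNL1 by 67.3%, all 3 beta subunit genes rose, SCN3B by 2.32-fold, SCN2B by 1.74-fold and SCN4B by 1.7-fold. With siRNA-1, which lowered it by 40.1%, SCN3B rose by 1.5-fold and no other of the 4 genes passed the test. Thus 3 of the 4 genes rose with siRNA-2, where 9.64% of all tested genes did, and 1 of 4 with siRNA-1, where 5.85% did. None of the 4 fell with either siRNA. In 18.7% of tested genes all siRNA-2 libraries lay above all scramble libraries, as they did for these 3.

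SCN3B, whose protein supports the surface level and gating of the cardiac channel, had 7.69, 7.24 and 6.71 CPM in siRNA-1 libraries and 10.6, 11.5 and 11.5 CPM with siRNA-2, against 4.41, 5.74 and 4.34 CPM with scramble. All siRNA-1 libraries lay above all scramble libraries, as in 14.7% of tested genes, and so did all siRNA-2 libraries, as in 18.7%. The siRNA-2 libraries lay above all siRNA-1 libraries, as in 17% of tested genes. The difference was 0.58 on the log2 scale with siRNA-1 (SE 0.12, interval 0.33 to 0.84, adjusted p = 0.00232) and 1.21 with siRNA-2 (SE 0.12, interval 0.97 to 1.46, adjusted p = 6.11e-08). Only 1.7% of tested genes had a larger log2 fold change with siRNA-2. Against scramble library 2 alone, the siRNA-1 difference was 0.34 and no longer passed the test (adjusted p = 0.215).

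SCN2B had 10.3, 9.15 and 10.4 CPM in siRNA-1 libraries and 15.4, 15.9 and 13.6 CPM with siRNA-2, against 7.58, 9.29 and 8.89 CPM with scramble. The siRNA-2 libraries lay above every scramble library, and the lowest siRNA-1 library lay below the highest scramble library. The difference was 0.80 with siRNA-2 (SE 0.10, adjusted p = 1.37e-06). With siRNA-1 it was 0.21, with an interval of 0.0024 to 0.41 (adjusted p = 0.227), so a change of up to about that upper bound was not resolved.

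SCN4B, whose cytoplasmic tail is known from neurons to promote resurgent sodium current, had 2.68, 2.43 and 1.61 CPM in siRNA-1 libraries and 2.92, 3.41 and 2.75 CPM with siRNA-2, against 1.48, 1.85 and 1.96 CPM with scramble. All siRNA-2 libraries were above all scramble libraries, while 1 siRNA-1 library fell among them. The difference was 0.76 with siRNA-2 (SE 0.19, interval 0.36 to 1.16, adjusted p = 0.00622) and 0.32 with siRNA-1 (interval -0.10 to 0.74, adjusted p = 0.409). The siRNA-2 call ended against scramble library 2 or 3 alone (0.71 and 0.63, adjusted p = 0.0905 and 0.142).

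SCN10A rested on few reads: 9, 7 and 9 counts with siRNA-1 and 1, 9 and 3 counts with siRNA-2, against 3, 8 and 5 counts with scramble. Pooled over a group and set against library totals without TMM scaling, exact Poisson intervals for counting error alone were 0.117 to 0.267 CPM with siRNA-1 and 0.0394 to 0.127 with siRNA-2, against 0.0439 to 0.125 with scramble. The siRNA-1 libraries, at 0.163 to 0.181 CPM, did not overlap the scramble libraries at 0.0446 to 0.132 CPM, as was so for 14.7% of tested genes in that direction. SCN10A passed the low-count filter in 3 siRNA-1 libraries and 0 scramble libraries, so this separation is conditional on that filter. Neither difference passed the test, at 1.17 with siRNA-1 (interval -0.02 to 2.35, adjusted p = 0.243) and -0.16 with siRNA-2 (interval -1.48 to 1.16, adjusted p = 0.907), and the sign of the siRNA-2 value turned with single libraries.

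Averaged over both siRNAs against scramble, SCN3B (0.90, adjusted p = 1.61e-06), SCN2B (0.50, adjusted p = 0.000167) and SCN4B (0.54, adjusted p = 0.035) rose, where 8.57% of tested genes did. The SCN4B call ended in 7 of 9 fits that left out 1 library (values 0.45 to 0.64, adjusted p = 0.01 to 0.108); it held only without siRNA-1 library 3 or siRNA-2 library 3. SCN10A was at 0.50 (adjusted p = 0.615).

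The siRNAs also differed from each other. SCN2B was lower with siRNA-1 than with siRNA-2 by 0.59 (log2 fold change -0.59, SE 0.10, adjusted p = 0.000183) and SCN3B by 0.63 (-0.63, SE 0.12, adjusted p = 0.000647), where 4.53% of tested genes were lower. The SCN4B value of -0.44 (interval -0.85 to -0.04, adjusted p = 0.178) and the SCN10A value of 1.33 (adjusted p = 0.18) did not pass the test. ATRNL1 differed the other way, at 10.2, 9.02 and 8.26 CPM in siRNA-1 libraries and 4.93, 5.41 and 4.61 CPM with siRNA-2 (log2 fold change 0.87, adjusted p = 2.61e-05).

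**Figure D2:**
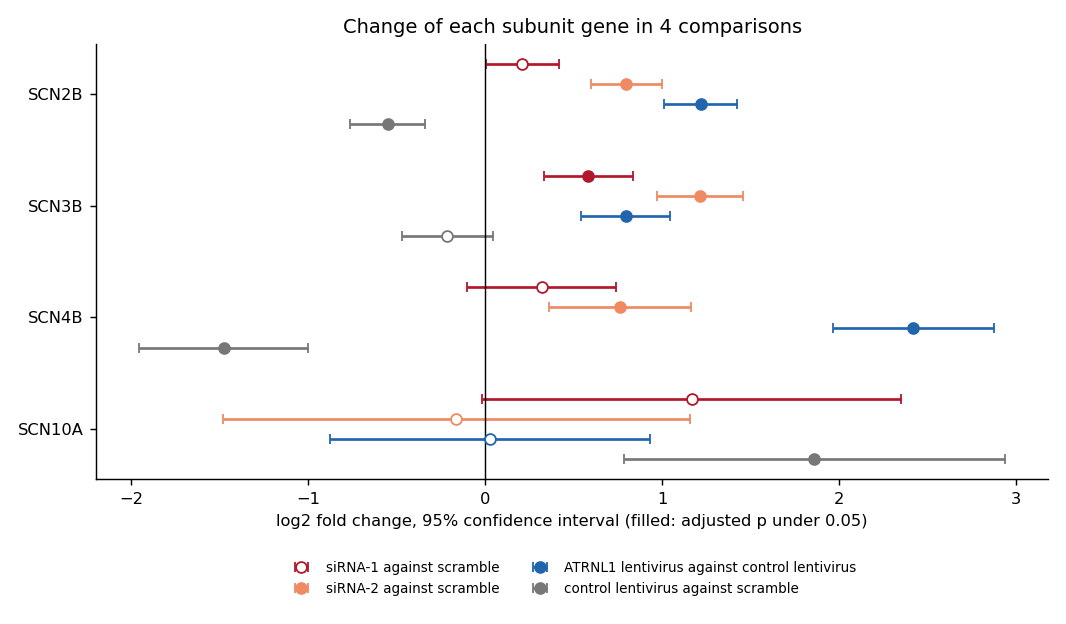
Log2 fold change of each of the 4 genes in the comparisons of siRNA-1, siRNA-2, the ATRNL1 lentivirus and the control lentivirus, each against the control named in the panel. Points are edgeR estimates, lines their 95% confidence intervals, and filled points passed an adjusted p of 0.05. SCN3B is filled and above 0 with siRNA-1, siRNA-2 and the ATRNL1 lentivirus, and the SCN4B point for the ATRNL1 lentivirus, at 2.42, is the highest of all.

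The ATRNL1 lentivirus was set against the control lentivirus to ask how the subunits stood when ATRNL1 was raised. ATRN rose as well, by 1.18-fold (edgeR, adjusted p = 0.00586). The same 3 beta subunit genes rose, SCN4B by 5.35-fold, SCN2B by 2.33-fold and SCN3B by 1.73-fold. This was 3 of 4 genes, where 19.1% of all tested genes rose. SCN10A did not pass the test.

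SCN4B had 3.62, 3.34 and 3.31 CPM with the ATRNL1 lentivirus, against 0.51, 0.496 and 1.05 CPM with the control lentivirus. Every ATRNL1 library was above every control library, as in 21.4% of tested genes, and 1 control library was above the others. The difference was 2.42 on the log2 scale (SE 0.22, interval 1.96 to 2.88, adjusted p = 2.45e-09), and 0.762% of tested genes had a larger one.

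SCN2B had 12.2, 14.2 and 14.8 CPM with the ATRNL1 lentivirus, against 5.92, 5.5 and 6.32 CPM with the control lentivirus. The groups lay far apart beside a spread of 1.39 CPM and 0.412 CPM (SD, n = 3 each), and 21.4% of tested genes separated in this direction. The difference was 1.22 (SE 0.10, interval 1.01 to 1.43, adjusted p = 3.87e-10).

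SCN3B had 6.41, 7.42 and 7.83 CPM with the ATRNL1 lentivirus, against 3.73, 3.86 and 5.02 CPM with the control lentivirus. These groups did not overlap either, and for 21.4% of tested genes the libraries separated in this direction. The difference was 0.79 (SE 0.12, interval 0.54 to 1.05, adjusted p = 9.79e-06).

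SCN10A had 26, 15 and 19 counts with the ATRNL1 lentivirus, against 20, 23 and 13 counts with the control lentivirus. The groups overlapped throughout, at 0.227 to 0.366 CPM and 0.233 to 0.319 CPM. The log2 fold change was 0.03, with an interval of -0.88 to 0.93 (adjusted p = 0.971), so changes of up to about those bounds were not resolved.

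Lowering ATRNL1 with siRNA-2 and raising it with the lentivirus each went with higher SCN2B, SCN3B and SCN4B than the control of that delivery method. With siRNA-1 only SCN3B rose, and SCN2B (0.21) and SCN4B (0.32) did not pass the test. Of all tested genes, 2.86% rose with both siRNA-2 and the ATRNL1 lentivirus, and 1.14% rose with these and siRNA-1. SCN2B, SCN3B and SCN4B were among the first and SCN3B alone of the 4 among the second. The difference between the lentiviral effect and the mean siRNA effect was itself tested. The lentiviral effect was larger for SCN4B, by 1.88 (SE 0.28, adjusted p = 9.08e-06), and for SCN2B, by 0.72 (SE 0.13, adjusted p = 0.000115), where 16.5% of tested genes had a difference called in that direction. For SCN3B the difference of -0.11 (interval -0.44 to 0.23, adjusted p = 0.676) and for SCN10A that of -0.47 (interval -1.89 to 0.94, adjusted p = 0.654) did not pass.

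The controls themselves stood apart. ATRNL1 was 1.83-fold higher with the control lentivirus than with scramble (edgeR, log2 fold change 0.87, adjusted p = 8.53e-08). Against scramble, the control lentivirus had lower SCN4B (log2 fold change -1.48, SE 0.23, adjusted p = 3.78e-06) and SCN2B (-0.55, SE 0.10, adjusted p = 3.67e-05), where 33.2% of tested genes fell. SCN10A was higher by 3.63-fold (1.86, interval 0.78 to 2.94, adjusted p = 0.00317), where 30.3% rose. The call ended against scramble library 1 or 2 alone (2.07 and 1.06). SCN10A passed the low-count filter in 3 control lentivirus libraries and 0 scramble libraries, so this call is conditional on that filter. SCN3B, at -0.21, did not pass on TMM scaling (adjusted p = 0.14). On library size alone it was -0.42 and did (adjusted p = 0.00781), a scaling under which the median of all tested genes was -0.26 in place of -0.06. The comparison with the ATRNL1 lentivirus uses the same control lentivirus libraries, so these values are not independent of the rises above. The SCN4B libraries with the ATRNL1 lentivirus, at 3.31 to 3.62 CPM, lay above the scramble libraries at 1.48 to 1.96 CPM. That pair of groups was not tested, and the share of all genes that separated so was not counted. Virus, selection and handling differ together between the lentiviral groups and scramble and cannot be told apart.

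Ordered by group mean, SCN2B had 15 CPM with siRNA-2, 13.7 CPM with the ATRNL1 lentivirus, 9.94 CPM with siRNA-1, 8.59 CPM with scramble and 5.91 CPM with the control lentivirus. The siRNA-2 and ATRNL1 lentivirus libraries overlapped, as did the siRNA-1 and scramble libraries. SCN3B had 11.2 CPM with siRNA-2, 7.22 CPM with the ATRNL1 lentivirus, 7.21 CPM with siRNA-1, 4.83 CPM with scramble and 4.2 CPM with the control lentivirus. Its ATRNL1 lentivirus and siRNA-1 libraries overlapped, as did those of the 2 controls. SCN4B had 3.42 CPM with the ATRNL1 lentivirus, 3.03 CPM with siRNA-2, 2.24 CPM with siRNA-1, 1.76 CPM with scramble and 0.685 CPM with the control lentivirus. SCN10A averaged 0.289 CPM with the ATRNL1 lentivirus, 0.285 CPM with the control lentivirus, 0.173 CPM with siRNA-1, 0.0807 CPM with scramble and 0.0685 CPM with siRNA-2. The lentiviral libraries, at 0.227 CPM or more, thus all lay above the siRNA and scramble libraries, at 0.181 CPM or less. Between the controls alone, 32.9% of tested genes separated in this direction. SCN10A passed the low-count filter through the siRNA-1 and lentiviral groups, so its separation is conditional on that filter.

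Ratios among the beta subunits were compared within libraries, and none of these comparisons passed a test. The SCN3B level per kilobase was 0.448 ± 0.0455 of the SCN2B level with siRNA-1 and 0.462 ± 0.0508 with siRNA-2, against 0.346 ± 0.0412 with scramble (SD, n = 3 each). With the ATRNL1 lentivirus it was 0.324 ± 0.00161, against 0.436 ± 0.0502 with the control lentivirus. In none of these comparisons did the libraries overlap, and the direction was up with the siRNAs and down with the ATRNL1 lentivirus. Each had an exact two-sided permutation p of 0.1, the smallest that 3 against 3 libraries allow. The SCN4B level was 0.26 ± 0.0412 of the SCN2B level with the ATRNL1 lentivirus, against 0.118 ± 0.0464 with the control lentivirus (exact permutation p = 0.1). It was 0.234 ± 0.064 with siRNA-1 and 0.208 ± 0.0132 with siRNA-2, against 0.211 ± 0.0141 with scramble, and these libraries overlapped (exact permutation p = 0.8 for each). The SCN4B level relative to SCN3B was 0.803 ± 0.127 with the ATRNL1 lentivirus, against 0.265 ± 0.0744 with the control lentivirus (exact permutation p = 0.1). It was 0.516 ± 0.0989 with siRNA-1 (exact permutation p = 0.6) and 0.454 ± 0.0492 with siRNA-2 (exact permutation p = 0.1), against 0.62 ± 0.119 with scramble. These are 9 comparisons of ratios that share genes and controls, and none could pass an adjustment over the 9.

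**Figure D3:**
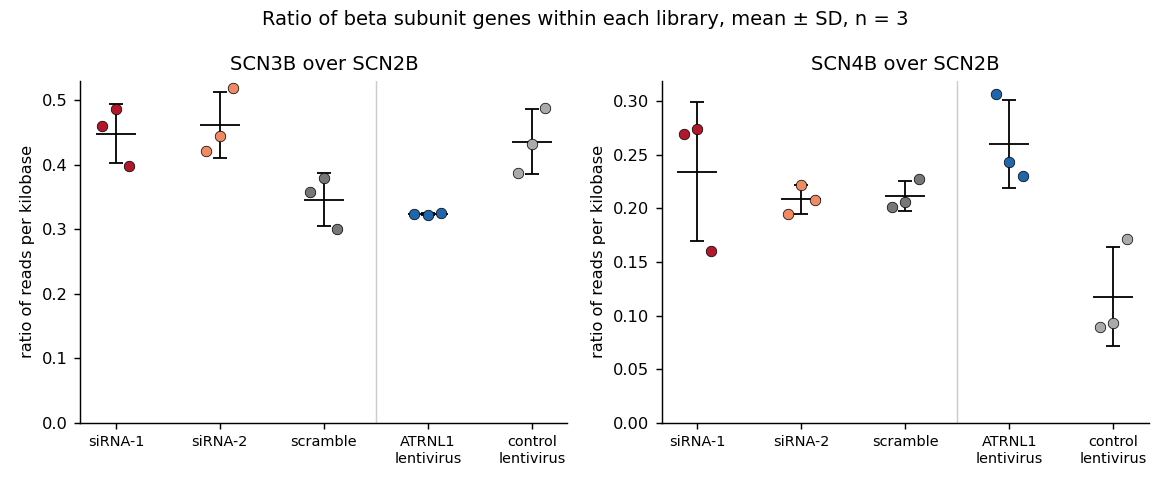
Ratio of SCN3B to SCN2B and of SCN4B to SCN2B, each per kilobase of exon, with 1 point per library and a bar at the group mean. The SCN3B ratio lies at 0.398 to 0.519 in the siRNA libraries and at 0.322 to 0.325 in the ATRNL1 lentivirus libraries, and the SCN4B ratio at 0.23 to 0.307 in the ATRNL1 lentivirus libraries and 0.089 to 0.171 in the control lentivirus libraries.

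Pore-forming genes other than SCN10A rose with the siRNAs and fell with the ATRNL1 lentivirus, where they passed the test. Of 9 other sodium channel and leak channel genes, 8 were tested. With siRNA-1, 2 rose and 0 fell, and with siRNA-2, 3 rose and 0 fell, where 5.85% and 9.64% of all tested genes rose. With the ATRNL1 lentivirus 0 rose and 3 fell, where 18% of all tested genes fell. The difference between the lentiviral effect and the mean siRNA effect was called lower for 4 of the 8 and higher for 0, where 15.5% of tested genes were lower. The list's median log2 fold change was 0.27, 0.37 and -0.60 in those comparisons, against -0.01, 0.00 and 0.00 over all tested genes. SCN8A, the alpha subunit of nodes of Ranvier that is also present in heart muscle, averaged 7.88 ± 0.875 CPM in siRNA-1 libraries and 7.79 ± 1.51 CPM with siRNA-2, against 4.12 ± 0.85 CPM with scramble (SD, n = 3 each). Its log2 fold changes were 0.94 (adjusted p = 3.46e-05) and 0.93 (adjusted p = 1.1e-05). With the ATRNL1 lentivirus it averaged 8.67 ± 0.278 CPM, against 13.4 ± 0.118 CPM with the control lentivirus, a fall by 0.63 (adjusted p = 0.000185).

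SCN2A, an alpha subunit of brain neurons, rose by 1.03 with siRNA-1 (adjusted p = 0.00155) and by 0.92 with siRNA-2 (adjusted p = 0.00211). Against scramble library 1 alone these were 0.65 and 0.53 and no longer passed (adjusted p = 0.235 and 0.242). Its ATRNL1 lentivirus value was -0.04 (adjusted p = 0.908). SCN9A, an alpha subunit of peripheral sensory and sympathetic neurons, averaged 1.82 ± 0.173 CPM with the ATRNL1 lentivirus, against 3.53 ± 0.451 CPM with the control lentivirus (SD, n = 3 each), and fell by 0.96 (adjusted p = 6.47e-05). SCN3A, an alpha subunit prominent in the developing brain, fell by 0.57 with the ATRNL1 lentivirus (adjusted p = 0.00473). Its rise of 0.48 with siRNA-2 (adjusted p = 0.0261) ended without siRNA-2 library 1 or 2 or scramble library 2 (0.30 to 0.50, adjusted p = 0.0586 to 0.178). Beside these, summed neuronal marker levels (8 genes, of which 3 were tested, with GAP43 and SNAP25 at 1 CPM or more) were 29.8 to 33.3 CPM in siRNA-1 libraries and 26.4 to 26.9 CPM with siRNA-2, against 13.8 to 23.6 CPM with scramble. They were 34.8 to 36.9 CPM with the ATRNL1 lentivirus, against 31.2 to 33.5 CPM with the control lentivirus. GAP43 and SNAP25 rose with each siRNA, where 5.85% and 9.64% of all tested genes did. With the ATRNL1 lentivirus 0 of the 3 tested markers were called, where 37.1% of all tested genes were. The part of such cells in the sodium channel values was not tested.

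**Figure D4:**
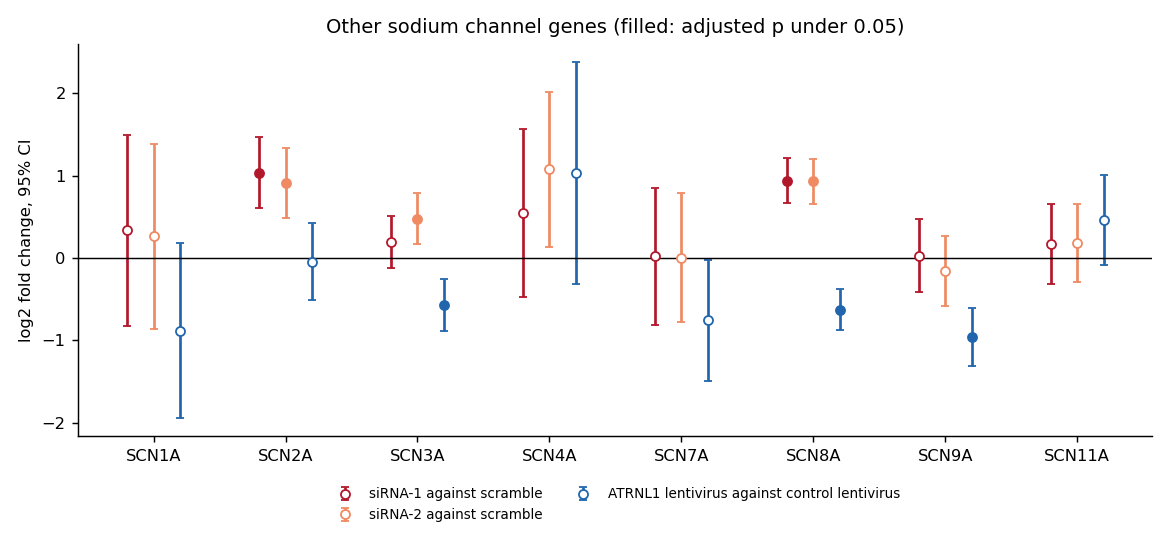
Log2 fold change with 95% confidence interval of 8 other sodium channel alpha subunit genes with siRNA-1 and siRNA-2 against scramble and with the ATRNL1 lentivirus against the control lentivirus, from edgeR. Filled points passed an adjusted p of 0.05. SCN8A is filled in all 3 comparisons, above 0 with both siRNAs and below 0 with the ATRNL1 lentivirus.

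Proteins that bind, anchor or remove the channel formed a second list of 22 genes, all tested. With siRNA-1, 3 rose and 1 fell, where 5.85% and 3.76% of all tested genes did. With siRNA-2, 4 rose and 4 fell, where 9.64% and 8.48% did. With the ATRNL1 lentivirus, 6 rose and 9 fell, where 19.1% and 18% did. The median log2 fold changes were 0.12, 0.02 and -0.17. FGF11, a fibroblast growth factor homologous factor of the family that binds the channel's cytoplasmic tail, averaged 18.2 ± 1.22 CPM with the ATRNL1 lentivirus, against 3.51 ± 0.726 CPM with the control lentivirus (SD, n = 3 each), and rose by 2.37 (adjusted p = 3.51e-14). It was at 0.00 with siRNA-1 and 0.19 with siRNA-2. SNTB1, a syntrophin scaffold, rose by 1.87 (adjusted p = 2.85e-07) and SPTBN4, the spectrin that anchors channels at specialised membrane, by 1.59 (adjusted p = 2.54e-06) with the ATRNL1 lentivirus.

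NEDD4, a ubiquitin ligase, rose by 0.41 with siRNA-1 (adjusted p = 0.0004) and 0.43 with siRNA-2 (adjusted p = 0.000106) and fell by 1.02 with the ATRNL1 lentivirus (adjusted p = 1.86e-11). Its siRNA-1 call ended against scramble library 1 alone (0.35, adjusted p = 0.0964), as did that of FGF12 (0.38, adjusted p = 0.0865). The related ligase NEDD4L, known to reduce cardiac sodium channels at the surface, rose by 0.71 with the ATRNL1 lentivirus (adjusted p = 1.67e-08). FGF12 and FGF13 belong to the same family as FGF11. FGF12 rose by 0.73 with siRNA-1 (adjusted p = 0.000178) and fell by 0.51 with the ATRNL1 lentivirus (adjusted p = 0.000721). With siRNA-2 it fell by 0.45 (adjusted p = 0.0101), which ended without scramble library 1 (-0.25, adjusted p = 0.0906). FGF13 fell by 0.64 with siRNA-2 (adjusted p = 6.43e-07).

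Beta subunits also bind cell adhesion molecules and are cut by secretases, and 15 of 17 such genes were tested. With siRNA-1, 2 rose and 0 fell. With siRNA-2, 2 rose and 1 fell, and with the ATRNL1 lentivirus 6 rose and 2 fell. Over all tested genes the shares that rose and fell were 5.85% and 3.76% with siRNA-1, 9.64% and 8.48% with siRNA-2, and 19.1% and 18% with the ATRNL1 lentivirus. The median log2 fold changes were 0.09, 0.14 and 0.26. CNTN1, contactin, is an adhesion molecule that associates with sodium channels in neurons. It averaged 13.9 ± 1.15 CPM in siRNA-1 libraries and 24.8 ± 0.799 CPM with siRNA-2, against 10.7 ± 1.85 CPM with scramble, and 57.9 ± 5.25 CPM with the ATRNL1 lentivirus, against 27.1 ± 5.12 CPM with the control lentivirus (SD, n = 3 each). It rose by 1.22 with siRNA-2 (adjusted p = 3.78e-08) and by 1.10 with the ATRNL1 lentivirus (adjusted p = 1.13e-08). Its value of 0.39 with siRNA-1 (adjusted p = 0.0359) missed the threshold when any of siRNA-1 library 1 or 2 or scramble library 2 or 3 was left out (adjusted p = 0.0762 to 0.199).

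NFASC, the node and initial segment protein neurofascin, rose by 0.63 with siRNA-2 (adjusted p = 0.00113), but not against scramble library 1 alone (0.32, adjusted p = 0.282). PTPRB, a receptor phosphatase best known from endothelium, fell by 0.93 with siRNA-2 (adjusted p = 2.47e-06) and by 0.86 with the ATRNL1 lentivirus (adjusted p = 9.86e-07). Summed levels of 5 endothelial markers, of which 1 reached 1 CPM, were 58.9 to 68 CPM with siRNA-2, against 37.2 to 66.5 CPM with scramble, and 50.1 to 52.5 CPM with the ATRNL1 lentivirus, against 61.6 to 72.2 CPM with the control lentivirus. TNC, the matrix protein tenascin, rose by 1.02 with the ATRNL1 lentivirus (adjusted p = 9.5e-05), as did APH1A, a gamma-secretase subunit, by 0.55 (adjusted p = 2.78e-07). L1CAM was also called with the ATRNL1 lentivirus, on 14 counts over its libraries against 0 in the control libraries, and no fold is given.

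Of 15 transcription factors bound at or linked to cardiac sodium channel genes, 4 rose and 0 fell with siRNA-1, 2 rose and 2 fell with siRNA-2, and 8 rose and 3 fell with the ATRNL1 lentivirus. Of all tested genes, 5.85% rose and 3.76% fell with siRNA-1, 9.64% and 8.48% with siRNA-2, and 19.1% and 18% with the ATRNL1 lentivirus. The median log2 fold changes were 0.20, -0.04 and 0.25. TBX3, a repressor of working-muscle genes in the mouse conduction system, rose by 0.44 with siRNA-2 (adjusted p = 0.000198) and by 0.42 with the ATRNL1 lentivirus (adjusted p = 0.000125). With siRNA-1 it was at 0.28 (adjusted p = 0.024), a call that ended in 4 of 6 fits without 1 library (0.21 to 0.28, adjusted p = 0.0679 to 0.155), and the siRNA-2 call ended against scramble library 1 alone (0.29, adjusted p = 0.0883). ETV1, linked to fast conduction in mouse atria, fell by 0.52 with siRNA-2 (adjusted p = 1.55e-05) and by 0.63 with the ATRNL1 lentivirus (adjusted p = 1.56e-07). MEF2C, a muscle factor, fell by 0.57 with siRNA-2 (adjusted p = 2.25e-06) and by 0.35 with the ATRNL1 lentivirus (adjusted p = 0.00029). HEY2, a ventricular factor that is also among the ventricular markers below, rose by 0.85 with the ATRNL1 lentivirus (adjusted p = 4.68e-08).

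Ventricular markers were also higher in the comparisons where beta subunit genes rose, and went both ways where SCN2B and SCN4B fell. The summed level of 5 ventricular markers was 8151 to 9794 CPM in siRNA-1 libraries and 10971 to 11192 CPM with siRNA-2, against 6150 to 7352 CPM with scramble. It was 15332 to 16559 CPM with the ATRNL1 lentivirus, against 9829 to 11622 CPM with the control lentivirus. Of the 5, 2 rose with siRNA-1, 3 with siRNA-2 and 4 with the ATRNL1 lentivirus, and none fell. The shares of all tested genes that rose in these comparisons were 5.85%, 9.64% and 19.1%, and 3.76%, 8.48% and 18% fell. In the control lentivirus against scramble, where SCN2B and SCN4B fell, the summed level was higher. MYL2 rose by 0.87 and MYH7 by 0.83, while HEY2 fell by 0.96 and IRX4 by 1.37, where 30.3% of all tested genes rose and 33.2% fell. Glia and neural crest markers (6 genes, nearly all of the level from ERBB3) summed to 19.9 to 20.5 CPM in siRNA-1 libraries and 25.8 to 27 CPM with siRNA-2, against 13.4 to 14.4 CPM with scramble. They summed to 17.7 to 19.5 CPM with the ATRNL1 lentivirus, against 12.3 to 15.4 CPM with the control lentivirus. FOXD3 and S100B had 0 counts in both lentiviral groups. Fibroblast markers summed to 112 to 125 CPM in siRNA-1 libraries and 100 to 106 CPM with siRNA-2, against 66.5 to 96.8 CPM with scramble, and to 66.2 to 83.5 CPM with the ATRNL1 lentivirus, against 63 to 65.3 CPM with the control lentivirus. Of 5 tested fibroblast markers 3 rose with siRNA-1 and 2 with siRNA-2, and 2 rose and 1 fell with the ATRNL1 lentivirus. The part of any of these markers in the subunit values was not tested.

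The other marker lists had calls in both directions or few calls. Over all tested genes 5.85% rose and 3.76% fell with siRNA-1, and 9.64% rose and 8.48% fell with siRNA-2. With the ATRNL1 lentivirus 19.1% rose and 18% fell. Of 8 cardiomyocyte markers, 1 rose and 1 fell with siRNA-1, 3 rose and 1 fell with siRNA-2, and 4 rose and 3 fell with the ATRNL1 lentivirus. Of 8 atrial markers, 1 rose and 1 fell with siRNA-1, 1 rose and 2 fell with siRNA-2, and 0 rose and 3 fell with the ATRNL1 lentivirus. Of 7 pacemaker markers, 2, 1 and 2 rose in these comparisons and 0, 0 and 3 fell. Of 4 smooth muscle markers, 1 rose in each comparison, and 1 fell with the ATRNL1 lentivirus. Endothelial, skeletal muscle and pluripotent lists had 2 tested genes each, and the only calls were falls of KDR and of MYOG with the ATRNL1 lentivirus.

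Over the 15 libraries, which fall into 5 groups, Pearson's r of log2 CPM was 0.913 between SCN2B and SCN4B, 0.889 between SCN2B and SCN3B and 0.791 between SCN3B and SCN4B. Within groups, on deviations from the group means, it was 0.333, 0.550 and 0.624 for the same pairs. SCN10A had values of -0.288, -0.308 and -0.253 with SCN2B, SCN3B and SCN4B, on few counts. Among 11035 genes of at least 5 CPM, those most like SCN2B included GPR37 (0.957), DDI2 (0.956), OLFML2A (0.953) and ZNF792 (0.940). Those most like SCN3B were ERBB3 (0.972), a neuregulin receptor, EHBP1L1 (0.961), PNMA8A (0.947), MFAP4 (0.934) and LTBP2 (0.927). Among 11036 genes, those most like SCN4B were ZNF3 (0.942), DDN (0.940), PRIMA1 (0.937), AC097359.2 (0.935) and OLFML2A (0.934), and those most like SCN10A were RCAN3 (0.871), DDX18 (0.855), GPR137B (0.852), OTULIN (0.841) and KCNJ2 (0.838), which encodes an inward rectifier potassium channel. These coefficients describe libraries that share treatment and sequencing, and they mostly follow the group means.

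The genes around SCN4B and SCN2B were counted in the same way. Within 250 kb on each side of the pair lay 21 genes, the pair included, and 8 others were tested. Of these 8, 0 were called with siRNA-1, 2 with siRNA-2 and 3 with the ATRNL1 lentivirus, where 9.61%, 18.1% and 37.1% of all tested genes were called in either direction. With siRNA-2, 0 rose and 2 fell, ATP5MG, a subunit of mitochondrial ATP synthase, by 0.54 (adjusted p = 3.61e-05) and UBE4A, a ubiquitin ligase, by 0.28 (adjusted p = 0.00513). With the ATRNL1 lentivirus 2 rose, both at low levels over all libraries: IL10RA, a cytokine receptor subunit at 0.138 CPM, by 2.03 (adjusted p = 0.0403), and AP001267.4, at 0.336 CPM, by 1.13 (adjusted p = 0.0181). ATP5MG fell by 0.27 (adjusted p = 0.0104). The window was chosen after the values of the 4 genes were known.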

How the data were processed

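Total RNA of 15 samples was made into libraries by ribosomal RNA depletion (KAPA RiboErase), per the labels' protocols, although the molecule field of the labels reads polyA RNA. The authors deposited 1 table of raw counts per gene for all libraries. The submitters' processing notes name STAR 2.7.9a, DESeq2 1.30.1 and GRCh38, without saying which step each served, and no source used here gives the counting tool or the strand setting. Of its 59429 rows, 58780 carry a GENCODE v29 gene identifier. The 649 others held 0.00157 to 0.00437% of counts and were left out. Column names give the group only, so libraries are numbered in column order, and the numbers pair nothing. Title numbers join in all groups but scramble (31, 41 and 341; 52, 62 and 562; 7, 8 and 78; 9, 10 and 910). The labels do not say whether these mark pools, and columns cannot be matched to titles, so each library was counted as 1 sample.

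In R 4.3.3, edgeR 4.0.16 was fitted to all 15 libraries with 5 group means (TMM scaling, filterByExpr, 24659 genes, biological coefficient of variation 8.24%), and p-values were adjusted over all genes by the Benjamini-Hochberg method at 0.05. SCN2B, SCN3B and SCN4B passed the filter of 0.176 CPM, taken before TMM scaling, in all libraries. SCN10A passed through the siRNA-1 and both lentiviral groups only, so its calls against scramble and siRNA-2 are conditional on that. Levels are CPM, and RPKM uses the length of all exons. Poisson and 95% intervals of counts cover counting error only. Ratios were compared with exact two-sided permutation tests. The script was tested on simulated counts. limma 3.58.1 and DESeq2 1.42.0 were alternatives, beside other scalings and filters, fits of the compared groups alone, leaving out each library, and single scramble libraries.

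The members, the pathway and marker lists and the motifs were chosen with earlier results of these data known. Named genes are the 4 members, up to 6 called genes with the largest changes per pathway list and comparison, and the 5 genes of at least 5 CPM most correlated with each member on log2 CPM (prior count 2). Not all genes that this rule allows are described, and some are not reported here.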

Additional observations from a re-analysis of the deposited data

Results flagged for a closer look

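The change in SCN4B with the ATRNL1 lentivirus differed from its mean change with the siRNAs, by a log2 value of 1.88 (SE 0.28, adjusted p = 9.08e-06, edgeR's quasi-likelihood test of the difference). Leaving out any 1 library gave 1.66 to 2.23. The same test set apart SCN2B, by 0.72 (SE 0.13, adjusted p = 0.000115), with 0.66 to 0.80 when any 1 library was left out. In both genes each change was a rise against its own control, and the lentiviral one was larger. Both were also lower in the control lentivirus than in scramble, and those control libraries enter the difference. Groups of 3 libraries are too small for a search for outlying libraries.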

How the results depend on the processing

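Of 461 alternative values for 28 differences of the 4 genes, 431 kept their direction and their side of the threshold. Among other scalings, filters and tools, the exception was SCN3B in the control lentivirus against scramble on library size alone (-0.42, adjusted p = 0.00781). Against scramble library 1 alone, SCN10A with siRNA-2 was 0.053, SCN4B over both siRNAs 0.81 (adjusted p = 0.131) and SCN10A in the control lentivirus 2.07 (adjusted p = 0.0543). Against scramble library 2 alone, SCN3B with siRNA-1 was 0.34, SCN4B with siRNA-2 0.71, SCN4B over both siRNAs 0.49, SCN10A over both siRNAs -0.28, SCN10A in the control lentivirus 1.06 and SCN3B there -0.48. The lentiviral effect minus the mean siRNA effect was then 0.31 for SCN10A and 0.15 for SCN3B. Against scramble library 3 alone, SCN10A with siRNA-2 was 0.59, SCN4B with siRNA-2 0.63 and SCN4B over both siRNAs 0.42. Such a sole library is assumed to vary like the other groups. Leaving out 1 library at a time gave 0.45 to 0.64 for SCN4B over both siRNAs, -0.34 to -0.076 for SCN3B in the control lentivirus (called without control lentivirus library 3, adjusted p = 0.0252), and changes of sign only for SCN10A with siRNA-2 (-1.20 to 0.38), over both siRNAs (-0.018 to 1.05) and with the ATRNL1 lentivirus (-0.15 to 0.17), and for the difference of effects in SCN10A (-1.02 to 0.044) and SCN3B (-0.24 to 0.022). The causes were not tested. Of 49 calls of pathway list genes, 20 ended in at least 1 of the same settings, added after seeing the data, and FGF12 with siRNA-2 turned to 0.0037 against scramble library 2 alone. A filter of at least 1 CPM in 3 libraries gave no value for SCN10A. No paired analysis was possible because the columns carry no replicate numbers that the labels share between groups. SCN10A, at 1 to 26 counts per library, is limited by depth.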
